A study of Drosophila melanogaster with 2 samples.

Results

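Translation factors and aminoacyl-tRNA synthetases were taken as the protein-coding genes whose symbol begins with eIF, eEF or eRF, or ends in RS or RS-m after an amino acid abbreviation. The rule found 89 of 13945 protein-coding genes, made up of 44 initiation factors, 8 elongation factors, 2 release factors, 20 cytosolic synthetases and 15 mitochondrial synthetases. Their promoters were examined in ChIP-seq peak lists from whole Drosophila melanogaster embryos of the strain hkb-GFP, aged 0 to 24 h and not sexed. The flies carry hkb fused to eGFP, chromatin was sonicated to 200 to 800 bp, and DNA bound to the fusion protein was pulled down through an anti-GFP antibody. There were 2 biological replicates of this 1 group, and no embryos of another genotype, age or treatment were compared. The labels name a possible control experiment, which was not used here, and the depth of each library is unknown because the lists hold no read totals.

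Huckebein is a zinc finger transcription factor known for its role at the poles of the early embryo and later in the nervous system. Initiation factors bring the small ribosomal subunit, the initiator tRNA and the mRNA together, elongation factors carry aminoacyl-tRNAs to the ribosome and move it along the message, and release factors free the finished protein. Aminoacyl-tRNA synthetases join each amino acid to its tRNA, in the cytosol or in mitochondria, where the enzymes are also encoded in the nucleus. Most of these genes are used by every growing cell.

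A gene was counted as having a peak when a summit of the list lay within 500 bp of one of its own annotated transcript starts. By that count 32 of the 89 genes (36.0%, exact 95% interval 26.1 to 46.8, counting error over genes only) had a peak in the list that combines both replicates, which holds 7220 peaks. Over all protein-coding genes it was 3385 (24.3%). In the list called on replicate 1 alone it was 24 genes (27.0%), beside 18.7% of all protein-coding genes, and in that of replicate 2 it was 22 genes (24.7%), beside 16.4%. A peak in all 3 lists was found at 18 of the 89 (20.2%), beside 13.2% of all protein-coding genes. The share thus lay above the background in each list, and the difference was not tested. Of the other 14 genes in the combined list, 6 were also in the list of replicate 1, 2 (ArgRS and eIF3m) were also in that of replicate 2, and 6 (eIF2alpha, eIF3k, eIF3f1, HisRS, AspRS and PheRS-m) were in neither. AlaRS and ArgRS-m had a peak in the list of replicate 2 only, and 55 genes had none in any of the 3.

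**Figure D1:**
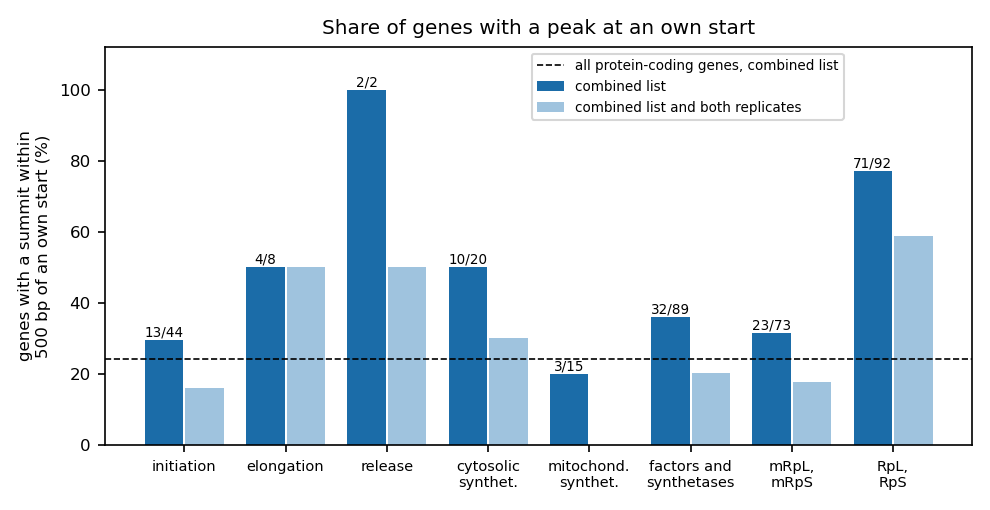
Percentage of genes with a summit within 500 bp of an own start, by role, in the combined list (dark bars, with counts) and in the combined list and both replicates' lists (light bars). The dashed line is the 24.3% of all protein-coding genes in the combined list, and 3 of 15 mitochondrial synthetases stand below it while 71 of 92 cytosolic ribosomal protein genes stand far above it.

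The sequence under 7 summits in all 3 lists, at strong peaks of initiation, elongation and release factors and of synthetases, is given so that promoters of factors and synthetases can be read side by side. Each is 101 bases of the RefSeq Release 6 genome (dm6 coordinates), 5′ to 3′ on the strand of the gene, with the summit at base 51. Capitals mark TATCGATA, the DNA replication-related element (DRE) found at many housekeeping promoters, or TCAGT, the core of the common initiator, on either strand. The windows are at chr3R:29220088-29220188 for eEF1gamma, chr3R:23958480-23958580 for GluProRS, chr3L:22288447-22288547 for IleRS, chr2L:21682049-21682149 for eEF2, chr2L:5052421-5052521 for eIF3h, chr3L:3460657-3460757 for eIF5B and chr2L:12434334-12434434 for eRF3.
eEF1gamma: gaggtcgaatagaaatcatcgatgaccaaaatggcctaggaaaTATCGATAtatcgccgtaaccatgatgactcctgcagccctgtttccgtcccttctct
GluProRS: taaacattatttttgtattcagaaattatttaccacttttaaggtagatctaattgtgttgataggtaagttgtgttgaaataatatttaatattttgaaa
IleRS: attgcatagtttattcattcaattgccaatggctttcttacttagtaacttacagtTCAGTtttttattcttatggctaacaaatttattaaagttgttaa
eEF2: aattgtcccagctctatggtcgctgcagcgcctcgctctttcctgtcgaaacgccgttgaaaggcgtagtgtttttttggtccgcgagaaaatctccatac
eIF3h: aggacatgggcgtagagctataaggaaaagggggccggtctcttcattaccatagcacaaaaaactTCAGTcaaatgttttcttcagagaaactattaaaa
eIF5B: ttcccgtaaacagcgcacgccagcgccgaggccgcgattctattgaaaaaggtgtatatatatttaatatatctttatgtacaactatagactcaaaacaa
eRF3: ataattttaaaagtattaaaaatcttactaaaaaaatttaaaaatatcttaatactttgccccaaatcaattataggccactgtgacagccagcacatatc
The start of eEF1gamma is base 85 of its window and that of eEF2 is base 34, while the other 5 windows hold no annotated start of their gene. The DRE stands at the summit of eEF1gamma, TCAGT stands in the windows of IleRS and eIF3h, and the windows of GluProRS, eEF2, eIF5B and eRF3 hold none of the 7 motifs searched, which are named with the promoters further on.

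Every signal value below is the authors' own score for a peak, whose unit the labels do not give, and is read within its own list. Where 3 values stand in a row, they come from the combined list, replicate 1 and replicate 2 in that order. The combined values of the 32 genes ran from 45.5 to 1138, with a median of 137, beside a median of 121 over all protein-coding genes with a peak. All 12 genes with a combined value of at least 150 were in all 3 lists, whereas of the 9 under 100 only ValRS was. The combined list was called on the same 2 replicates, so its values and presence in the replicates' lists are not independent. Of all peaks in the combined list 45.1% had a value under 100. How presence in all 3 lists varied with the value over all protein-coding genes was not counted. Each of the 32 genes had a different strongest peak, so no peak was counted for 2 of them.

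**Figure D2:**
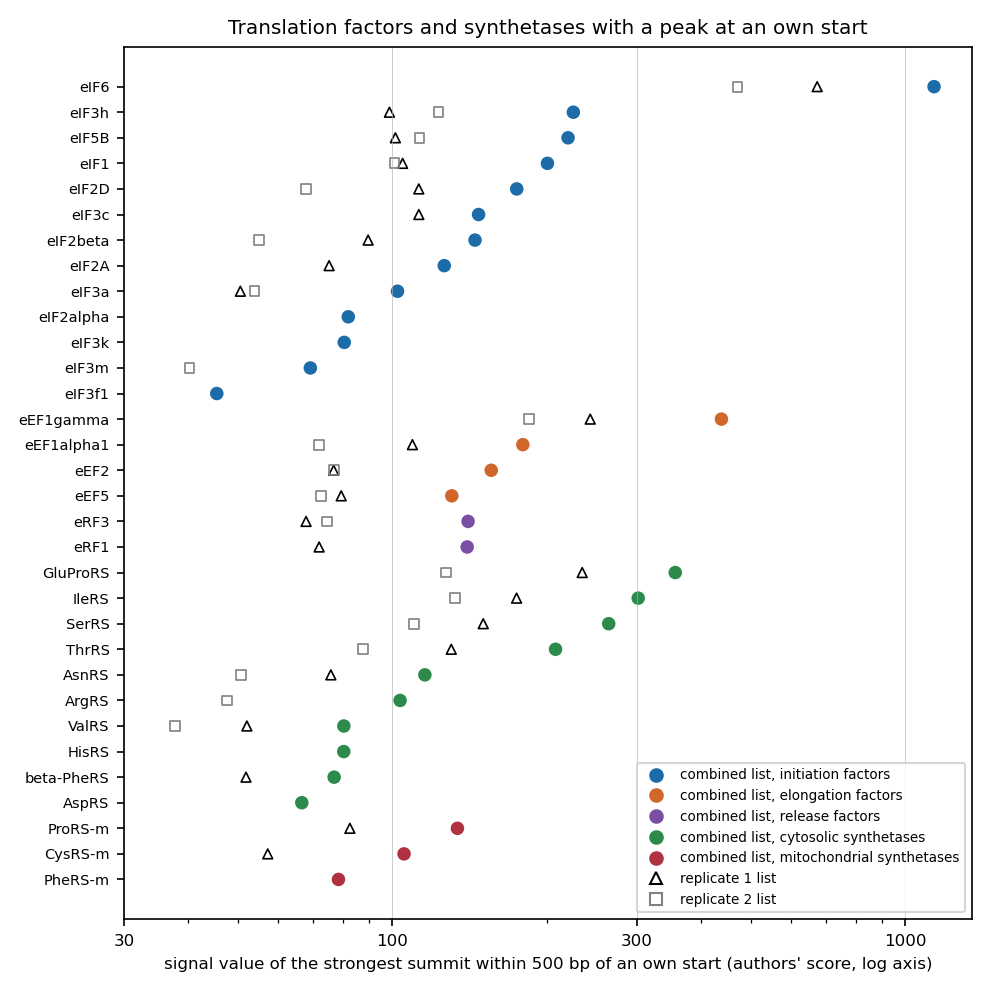
Signal value (log axis) of the strongest peak at each of the 32 genes with a peak in the combined list, with the value in the combined list and in the list of each replicate where the gene has one. eIF6 stands highest at 1138, and the genes without a replicate value lie mostly at the low end.

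Among the initiation factors, 13 of 44 had a peak in the combined list (29.5%, beside 24.3% of all protein-coding genes). In all 3 lists it was 7 (15.9%, beside 13.2%). The counts of roles and complexes below are read beside these shares of all protein-coding genes, and no difference from them was tested. The strongest of the 89 genes was eIF6 (FBgn0034915, 2R:23849246-23850301), which keeps the large ribosomal subunit from joining too early. Its peak at 2R:23850255-23850559 had signal values of 1138, 673 and 471, and its summit lay 99 bp upstream of the start. Only 41 peaks of the combined list had a higher value. The summit was also 70 bp from the start of the antisense RNA asRNA:CR45928 on the other strand, so the peak cannot be given to one of these starts alone.

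Other factors of start codon choice and subunit joining followed. eIF5B (FBgn0026259), the GTPase that joins the ribosomal subunits, had signal values of 220.1, 101 and 113, with the summit 104 bp upstream of the nearest start, inside the 5′ UTR of its longer transcripts. eIF1, which guards the fidelity of start codon choice, had 201, 105 and 101, but its summit lay 325 bp upstream and only 56 bp from the start of RpL28, a ribosomal protein gene on the other strand. eIF2D, which can deliver tRNA to the ribosome without eIF2, had 175, 113 and 67.9, with the summit 103 bp upstream. The 3 genes thus stood in every list. eIF2A, another alternative tRNA carrier, had 126 in the combined list and 75.3 in replicate 1 and was not in the list of replicate 2. With eIF6, 5 of the 7 factors that act singly had a peak, and eIF1A and eIF5 had none.

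For eIF2, the complex that brings the initiator tRNA, 2 of 3 subunits had a peak. eIF2beta had signal values of 145, 89.7 and 54.9, with the summit 308 bp upstream. eIF2alpha, the subunit phosphorylated when cells shut translation down under stress, had 82.1 in the combined list and was in neither replicate's list. eIF2gamma, the GTP-binding subunit, had none, and neither did any of the 5 subunits of eIF2B, the exchange factor that recharges eIF2 with GTP.

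For eIF3, the scaffold that holds the small subunit, 6 of 13 subunits had a peak in the combined list (46.2%, beside 24.3% of all protein-coding genes). Only eIF3h and eIF3a had one in all 3 (15.4%, beside 13.2%). eIF3h (FBgn0022023, 2L:5051193-5053094) had signal values of 225, 98.7 and 123. Its peak at 2L:5052388-5052517 was in an intron, 309 bp downstream of the nearest annotated start, the farthest downstream of the 32 genes. eIF3a had 102, 50.6 and 53.9, with the summit 92 bp upstream and 22 bp from the start of CG1074 on the other strand. Both were thus in every list. eIF3c had 147 in the combined list and 113 in replicate 1, and eIF3m had 69.2 in the combined list and 40.2 in replicate 2. eIF3k had 80.6 and eIF3f1 had 45.5, the lowest of the 32, and neither was in a replicate's list. The subunits without a peak were eIF3b, eIF3d1, eIF3e, eIF3g1, eIF3i, eIF3j and eIF3l.

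None of the 6 genes of the cap-binding machinery (eIF4A, eIF4B, eIF4E1, eIF4G1, eIF4H1 and eIF4EHP) had a peak in the combined list, and none of the 10 further gene copies of initiation factors did (eIF3d2, eIF3f2, eIF3g2, eIF4E3, eIF4E4, eIF4E5, eIF4E6, eIF4E7, eIF4G2 and eIF4H2). For 5 of these 10 copies, and for eIF4B of the cap-binding group, no candidate at all was ranked at a start. Every subunit of eIF2, eIF2B and eIF3 had at least a weak candidate. The counts of 0 in groups of 6 and 10 genes stand beside 24.3% of all protein-coding genes. Differences between these groups, or from that share, were not tested.

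Among the elongation factors 4 of 8 had a peak, and all 4 were in all 3 lists. eEF1gamma (FBgn0029176, 3R:29220172-29222109), a subunit of the exchange factor of eEF1, had signal values of 438, 243 and 185, at 3R:29220002-29220262, with the summit 34 bp upstream of the start and on the DRE shown above. eEF1alpha1, which carries aminoacyl-tRNA to the ribosome, had 179.7, 109 and 72.1, with the summit 60 bp upstream of a start within the gene. eEF2, which moves the ribosome along the mRNA, had 156, 76.8 and 76.9, with the summit 17 bp downstream of the start. eEF5, which helps the ribosome through difficult stretches such as runs of proline, had 131, 79.5 and 72.5. Its summit lay on the inner of its 2 annotated starts, at 2R:24057853, while the outer one is at 2R:24057798. The 4 summits thus lay within 60 bp of a start. eEF1alpha2, eEF1beta, eEF1delta and eEFSec, the factor for selenocysteine, had none. eEF1alpha1 and eEF1alpha2 are close copies, and the labels do not say how reads common to both were handled.

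Both release factors had a peak. eRF3 (FBgn0020443), the GTPase of termination, had signal values of 141, 67.9 and 74.5, with the summit 68 bp upstream. eRF1, which reads the stop codon, had 140.0 in the combined list and 72.0 in replicate 1 and was not in the list of replicate 2, although a candidate of 63.5 was ranked there below the threshold.

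Among the cytosolic synthetases 10 of 20 had a peak, and 6 had one in all 3 lists. GluProRS (FBgn0005674, 3R:23952136-23958391), which charges both glutamate and proline tRNAs, had signal values of 356, 235 and 127. Its peak at 3R:23958429-23958655 had its summit 139 bp upstream of the start and 121 bp from that of AP-1sigma on the other strand. IleRS, for isoleucine, had 302, 175 and 132, with the summit 168 bp upstream. SerRS, for serine, had 264, 150.4 and 110.3, with the summit 36 bp inside the 5′ UTR. All 3 were in every list, and their summits in the 2 replicates lay within 24 bp of each other.

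ThrRS, for threonine, had 208, 130.3 and 87.7, with the summit 213 bp upstream. AsnRS, for asparagine, had 116, 75.9 and 50.7, with the summit 93 bp upstream. ValRS, for valine, had 80.5, 52.1 and 37.7, with the summit 470 bp upstream of its start and 43 bp from that of the histone demethylase gene Kdm4B. ArgRS, for arginine, had 104 in the combined list and 47.6 in replicate 2. The remaining cytosolic synthetases with a peak had lower combined values than ArgRS and were not in all 3 lists. beta-PheRS, a subunit of the phenylalanine enzyme, had 77.0 in the combined list and 51.9 in replicate 1, while HisRS at 80.4 and AspRS at 66.6 were in the combined list only. AlaRS had 46.2 in the list of replicate 2 alone. CysRS, GlnRS, GlyRS, LeuRS, LysRS, MetRS, TrpRS, TyrRS and alpha-PheRS were in none of the 3 lists.

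By the 2 structural classes of synthetase, 6 of 10 class II enzymes and 3 of 9 class I enzymes had a peak, beside GluProRS, which holds an enzyme of each class. The share of all protein-coding genes was 24.3%, and the difference between these small classes was not tested. Among the 15 mitochondrial synthetases 3 had a peak in the combined list and none had one in all 3. ProRS-m had a signal of 134 in the combined list and 82.7 in replicate 1, CysRS-m had 105 and 57.2, and PheRS-m had 78.5 in the combined list only. ArgRS-m had 66.2 in the list of replicate 2 alone. The enzymes for alanine, asparagine, aspartate, glutamate, isoleucine, leucine, methionine, serine, tryptophan, tyrosine and valine had none. Among amino acids with a mitochondrial enzyme of their own in the set, only phenylalanine and proline had a combined-list peak at both the cytosolic and the mitochondrial enzyme. Cysteine alone had one only at the mitochondrial enzyme, but the CysRS-m summit lay 123 bp from its own start and 45 bp from that of O-fut1 on the other strand. Glutamine, glycine, histidine, lysine and threonine have no such mitochondrial enzyme in the set and could not be compared. Their enzymes, HisRS and ThrRS with a peak among them, are called cytosolic by symbol only.

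For scale, 71 of the 92 cytosolic ribosomal protein genes (RpL and RpS) had a peak in the combined list (77.2%), 54 of them in all 3 lists, and 23 of the 73 mitochondrial ones did (31.5%), 13 in all 3. The translation factors and synthetases lay between the general background and the cytosolic ribosomal proteins, close to the mitochondrial ribosomal proteins. These differences were not tested.

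Agreement between the replicates was read at the 18 genes in all 3 lists. Measured from the nearest own start, the positions of their strongest summits differed by a median of 17.5 bp between the 2 replicates. The range was 2 to 99 bp, and 14 of 18 differed by at most 30 bp. For eEF5 the nearest start was not the same in both replicates, so this measure understates its distance. Its summits lay at 2R:24057777 in replicate 1 and 2R:24057853 in replicate 2. The ratio of the value in replicate 1 to that in replicate 2 had a median of 1.34 and ranged from 0.802 to 1.85, beside a median of 1.26 over all 1846 protein-coding genes in all 3 lists. Each replicate was scored in its own list and depth is unknown, so this ratio is read only beside that median. It was below 1 at 5 genes, eIF3h, eIF5B, eIF3a, eRF3 and eEF2. Spearman's rho between the replicates was 0.792 over these 18 genes and 0.901 over the 1846, both as descriptions across genes, which are not independent and had to pass a threshold in each list.

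**Figure D3:**
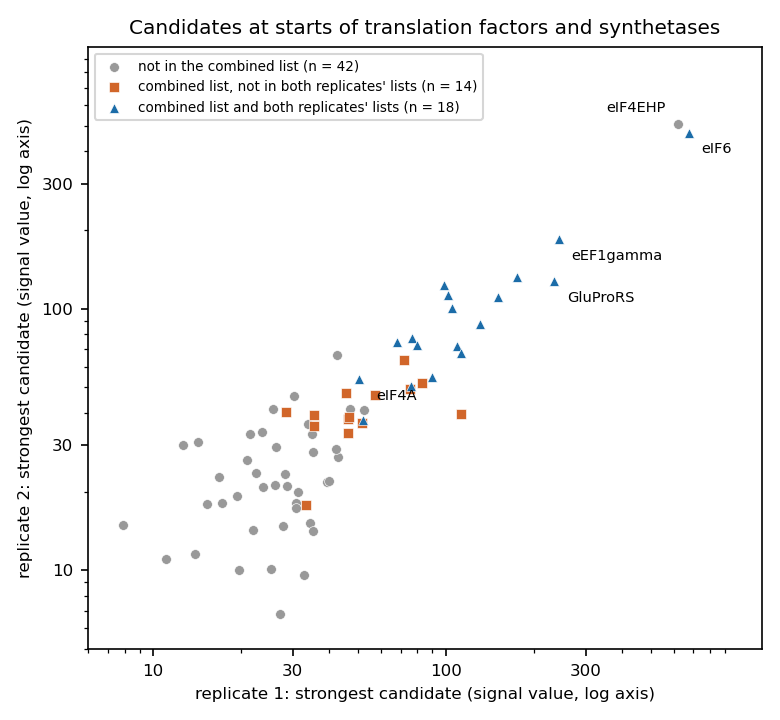
Signal value of the strongest ranked candidate at the starts of 74 genes with one in both replicates (both axes logarithmic), by whether the gene has a peak in the combined list and in the replicates' lists. The grey point beside eIF6 is eIF4EHP, with 620.1 in replicate 1 and 506 in replicate 2.

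The thresholded lists are drawn from longer rankings of candidates. A peak of the combined list had to have an irreproducible discovery rate (IDR) of at most 0.01, a −log10 value of at least 2. A ranked candidate of any strength lay at a start of 81 of the 89 genes (91.0%), beside 71.0% of all protein-coding genes. Read only over genes with a candidate, a peak in the combined list was found at 39.5% of these 81, beside 34.2% of the 9905 protein-coding genes with one. The distance to the background was thus narrower among genes with a candidate than among all genes. The 47 genes in no list that had a candidate had a median candidate value of 47.0.

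eIF4EHP, the cap-binding repressor that blocks translation of maternal messages such as hunchback, had a candidate of 1126 at 3R:24109011-24109392, 221 bp upstream of its start, almost as strong as that of eIF6. It had 620.1 in the ranking of replicate 1 and 506 in that of replicate 2, with a −log10 IDR of 5 in each of the 3 rankings, yet it is not in the thresholded lists used here. eIF4A, the helicase that unwinds the 5′ end of messages, likewise passed with 86.8 at 2L:5982261-5982644 and is not in the lists. In all, 172 of the 7392 candidates that pass were not in the combined list, 111 of them on arm 3R and 38 on 2L. Counting every passing candidate gave 34 genes instead of 32 (38.2%, beside 24.9% of all protein-coding genes), and the cap-binding group then had 2 of 6. Why they are not in the list was not tested.

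At the edges of the rule, eIF3f1 was just inside with a −log10 IDR of 2.11 and eIF2Bgamma just outside with 1.999. ValRS was the gene with the farthest upstream summit inside 500 bp. Outside it, the strongest peak of the whole combined list, at 2889, lay 690 bp upstream of eIF2Bbeta and 29 bp from the start of Ugalt, a transporter gene, and a peak of 678 lay 845 bp upstream of LeuRS-m. Peaks of 144 and 91.0 lay 779 bp upstream of eIF2Bdelta and 929 bp upstream of eEF1beta. These peaks too were nearer to another gene's start. The distance was 679 bp to Dhc64C for the peak near LeuRS-m, 274 bp to CG30414 for that near eIF2Bdelta and 421 bp to Psi for that near eEF1beta. The peak near eEF1beta was not in the list of replicate 1. A conservative list, which the authors also deposited, held 34 of the 89 genes (38.2%), beside 23.9% of all protein-coding genes. It added MetRS at 99.0, eIF2Bgamma at 69.6, eIF1A at 67.7 and eIF3b at 52.8, and it lacked eIF3m and eIF3f1. In the combined ranking used here the candidates of MetRS, eIF1A and eIF3b had −log10 IDR values of 1.85, 0.599 and 1.04.

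The strongest summit lay upstream of the own start at 25 of the 32 genes (78.1%), beside 77.0% over all protein-coding genes with a peak. Its median position was 99 bp upstream, at -99, beside -119 over all such genes. It was within 150 bp upstream at 17 genes, over 200 bp upstream at 6 and at or downstream of the start at 7. By position in the gene, 21 summits were upstream of all transcripts, 8 in a 5′ UTR and 3 in an intron. At 9 of the 32 genes the start of another gene was nearer to the summit than the own one, and at all 9 that gene was on the opposite strand. These were eIF6, eIF1, eIF3a, eIF3m, GluProRS, ArgRS, ValRS, AspRS and CysRS-m. Ties are not in this count. The HisRS summit lay 105 bp from its own start and from that of Bx on the same strand. The ProRS-m summit lay 119 bp from its own start and from that of Snup on the opposite strand.

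**Figure D4:**
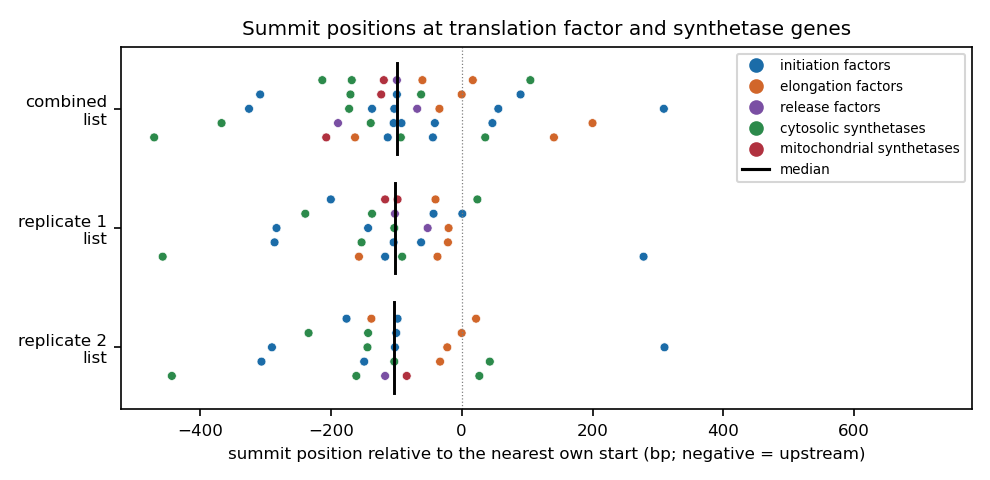
Position of each summit within 500 bp of an own start (bp, negative upstream) in the combined list and in the list of each replicate, coloured by role, with the median as a black bar. Most points lie between the start and 200 bp upstream, and the point farthest right is eIF3h at 309 bp.

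Such facing pairs were common in the set. A start on the other strand lay within 500 bp upstream of the main start at 43 of the 89 genes (48.3%), beside 27.7% of all protein-coding genes. Among synthetases it was 22 of 35 and among factors 21 of 54. Of the 43 genes with a facing start 37.2% had a peak, beside 37.0% of all protein-coding genes with one. Of the 46 genes without a facing start 34.8% had a peak, beside 19.4% of all protein-coding genes without one. The set was thus close to the background among genes with a facing start and above it among those without, and neither difference was tested. A peak in such a pair cannot be given to one gene.

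Promoters of 300 bases, from 250 before to 50 after the main start, were searched for short motifs on both strands. The DRE, TATCGATA, was in 20 of the 89 promoters (22.5%), beside 9.23% of all protein-coding promoters, and 10 of these 20 genes had a peak, beside 34.3% of all protein-coding genes with a DRE. It was in 15 of 54 factor promoters and 5 of 35 synthetase promoters. GGTCACAC, the core of the housekeeping promoter element Motif 1, was in 11 (12.4%), beside 7.79%. CAGCTG, an E-box, was in 21 (23.6%), beside 17.8%, but unevenly: in 17 of 35 synthetase promoters and in 4 of 54 factor promoters. The mitochondrial ribosomal protein genes had it in 54.8%.

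Other motifs were nearer to the background or below it. GAGAG, the GAGA factor motif, was in 14 promoters (15.7%), beside 30.2%, and the initiator core TCAGT was in 37 (41.6%), beside 52.1%. TATAAA was in 43 (48.3%), beside 45.5%. CACGCCC, a core of the GC-rich sequence known for Huckebein, was in 2 (2.25%), beside 1.61%. Within 50 bp either side of the summit, the DRE was found at 3 of the 32 genes (9.38%), beside 1.60% of all 3372 promoter summits, and GGTCACAC at 4 (12.5%), beside 1.42%. TATAAA was at 8 of 32, beside 19.4%, and TCAGT at 5 (15.6%), beside 19.3%. GAGAG was at 1 (3.13%), beside 14.4%, and neither CAGCTG nor CACGCCC was at any of the 32, beside 4.77% and 0.801%. These matches describe letters only, and differences were not tested.

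Many ribosomal protein and some translation factor genes start at a TCT initiator, a pyrimidine run in place of the usual initiator. It was searched on the gene's strand as a C within 5 bases of the main start followed by TTT. A match was found at 8 of the 89 genes (8.99%), beside 5.63% of all protein-coding genes and 47.8% of cytosolic ribosomal protein genes. Within 2 bases of the start only 2 genes had a match, so a match here is letters near the start and not a mapped initiator. ThrRS, eEF1alpha1, eEF2 and eIF3f1 had a match and a peak in the combined list, while LysRS, TyrRS, eIF3i and eIF4A had a match and no such peak. That is 4 of 8, beside 27.6% of all protein-coding genes with a match and 81.8% of the cytosolic ribosomal protein genes with one. At eEF1alpha1 the match was at the main start, whereas the strongest peak lay at another start. Its peak near the main start had 87.4, with the summit 163 bp upstream and 7 bp from the start of ERp60. That peak was not in the list of replicate 2. The starts of 3 of the first 4 are shown to make the run visible, 41 bases each of the RefSeq Release 6 genome on the gene's strand, with the annotated start at base 21 and the CTTT in capitals, at chr2L:12103731-12103771, chr2L:21682096-21682136 and chr3R:4714162-4714202.
ThrRS: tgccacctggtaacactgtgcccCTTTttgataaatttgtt
eEF2: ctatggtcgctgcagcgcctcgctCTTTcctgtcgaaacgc
eIF3f1: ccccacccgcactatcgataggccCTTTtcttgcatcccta
The C lay 3 bases downstream of the annotated start base in ThrRS and 4 bases downstream of it in eEF2 and eIF3f1.

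Genes that work with these enzymes were read from a list of 39 genes, of which 18 (46.2%) had a peak in the combined list and 8 in all 3, beside 24.3% and 13.2% of all protein-coding genes. The listed names mEFG2 and mtRF1 matched no annotated symbol and are not among the 39. Of 23 regulators and partners of initiation, 12 had a peak. Rack1, a scaffold on the small ribosomal subunit, had signal values of 219, 137 and 87.8. larp, a regulator of messages for the translation machinery, had 157, 72.5 and 82.7, and Thor, the binding protein that holds eIF4E1 inactive, had 156, 85.0 and 66.2. These 3 were in every list, although eIF4E1 itself had no peak. Gcn2, the kinase that phosphorylates eIF2alpha when amino acids run short, had 148, 85.7 and 61.2, and crc, the fly ATF4 that acts downstream of it, had 84.3, 45.8 and 35.8. clu at 127 and mTor, the growth kinase, at 105 were also in every list, while bel at 92.5, pelo at 88.2, pAbp at 88.1, Paip2 at 79.5 and NAT1 at 77.9 were not. Of 9 mitochondrial translation factors mEFTu2 had 88.9, mEFTu1 had 75.5 and mEFTs had 75.3, each outside the list of replicate 1. mEFG1, mIF2, mIF3, mRF1, mRRF1 and mRRF2 had none. Of 7 partners of the synthetases GatA had 148, Slimp 82.3 and AIMP1 71.1, and GatA alone was in all 3 lists. AIMP2, AIMP3, GatB and GatC had none.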

How the data were processed

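Peak lists from ChIP-seq of 2 biological replicates of 1 group were used, in dm6 coordinates per the labels, which also number the replicates. Neither the aligner nor the peak caller is named in the labels. The signal value of a peak is a score deposited by the authors, and the −log10 IDR of a candidate was also deposited by the authors. Every peak of the combined list is a ranked candidate with a −log10 IDR of at least 2. The conservative list also holds genes whose candidate in that ranking is below 2. The combined list was called on both replicates and each replicate's list on that replicate alone.

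Summits were compared with transcript starts of Ensembl release 115, by strand, with 500 bp as the limit, and the strongest summit within it was kept per gene. Sequences came from the RefSeq Release 6 genome, whose arms and lengths are those of dm6. The main start is the one with most transcripts. No p-value was computed. Only the share of all 89 genes in the combined list is given with an exact Clopper-Pearson 95% interval, which covers counting error over genes only. The shares of the smaller groups are given without one. The code was tested on simulated peaks with known positions. Every gene with a peak in the combined list was named, up to 6 of the strongest in all 3 lists per role were given in full, and of the genes in no list the 5 with the strongest candidates were given values. Sequence windows were taken for up to 2 of the strongest genes in all 3 lists per role, except on arm 2R. The members and lists were chosen with earlier results of these data known. Python 3.11.15, pandas 2.3.3, numpy 2.4.6, scipy 1.17.1, pyfaidx 0.9.0.4 and matplotlib 3.10.9 were used. Alternatives were the distance, the list, the assignment of a summit to a gene, the strength of the peak and each replicate alone.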

Additional observations from a re-analysis of the deposited data

How the results depend on the processing

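The 32 genes with a peak (36.0%, beside 24.3% of all protein-coding genes) became 27 within 250 bp (30.3%, beside 19.8%) and 36 within 1000 bp (40.4%, beside 28.4%). Counting the gene body and 1000 bp upstream gave 39 (43.8%, beside 31.7%). Giving a summit only to its nearest protein-coding start gave 25 (28.1%, beside 19.4%). The conservative list gave 34 (38.2%, beside 23.9%). Among the stronger 50% of the combined list the count was 20 (22.5%, beside 14.3%). With 1 replicate left out it was 22 (24.7%, beside 16.4%) to 24 (27.0%, beside 18.7%). The 18 genes in all 3 lists became 13 to 21 over the alternatives run for them. The share of upstream summits, 73.7% over all 38 summits, ranged from 78.3% to 88.5% with 1 replicate left out. The median position moved from -99 to -93 within 250 bp and to -103.5 within 1000 bp, and ranged from -103 to -102.5 with 1 replicate left out. A match to the TCT initiator was found at 2 genes within 2 bases of the start and at 13 within 10 bases. A wider window holds every narrower one, so this count could only rise with it. The DRE count of 20 became 18 with 100 bases before the start and 22 over any annotated start. No paired analysis was possible because there is 1 group. Read depth is unknown, and without a control or a second genotype peaks due to the tagged protein and other peaks cannot be told apart.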

Other observations

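Several genes also carried peaks inside the gene, away from any own start. eIF5B had intronic peaks of 336, 145 and 105 in the combined list, all 3 overlapped by a peak in each replicate's list, and the strongest, at 3L:3432732-3432959, exceeded the peak at its start. eIF4EHP had intronic peaks of 246, 95.8 and 72.4, of which the strongest, at 3R:24099092-24099275, was overlapped by a peak of 154 in replicate 1 and of 88.2 in replicate 2. eIF4G2, a copy of the scaffold of the cap-binding complex, had an intronic peak of 147 that lay 1095 bp from its start, with 76.0 in replicate 1 and 69.5 in replicate 2. SerRS-m had a peak of 77.8 in its 3′ UTR and HisRS one of 83.9 in a coding exon, neither overlapped by a peak in a replicate's list.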
